A study of Mus musculus with 16 samples.

Results

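Thy1 is the mouse gene for Thy-1, or CD90, and its promoter drives the APP transgene carried by 8 of the 16 mice described here. Its row was found by symbol in the table of raw counts, where it is 1 of 55487 genes and 1 of the 18609 genes with enough counts to be tested. Thy1 was chosen by its measured counts, namely its level in APPtg/CETPtg against CETPtg mice and the spread of that level among APPtg/CETPtg mice, so both are given as descriptions, with no test. The effect of evacetrapib on Thy1 played no part in the choice and was tested.

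RNA-seq was performed on bulk brain tissue of 16 female mice on a C57BL/6J background, 4 in each of 4 groups. CETPtg mice are heterozygous for a human CETP transgene, which gives them the plasma lipid transfer protein that mice otherwise lack. APPtg/CETPtg mice carry the same CETP transgene and, also heterozygous, a human APP751 transgene with the Swedish and Indiana mutations, expressed in neurons under the Thy1 promoter. All mice of both genotypes, controls included, were placed on a diet with 1% cholesterol at 11 weeks of age and received daily intraperitoneal injections for 11 weeks, either of evacetrapib, a CETP inhibitor, at 30 mg/kg or of its vehicle. The 4 groups are therefore CETPtg vehicle (mice S1 to S4), CETPtg evacetrapib (A to D), APPtg/CETPtg vehicle (S5 to S8) and APPtg/CETPtg evacetrapib (E to H). Mice without CETP, and mice with the APP transgene alone, were not analysed here, so each comparison is between CETP carriers.

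Thy-1 is a small glycoprotein of the immunoglobulin superfamily that is held in the outer leaflet of the membrane by a glycosylphosphatidylinositol (GPI) anchor. In the brain it is abundant on the axons of mature projection neurons, and outside the brain it marks T cells, fibroblasts and other stromal cells in the mouse. It binds integrins and syndecan-4 on neighbouring cells such as astrocytes, and in neurons it is linked to Src family kinases and to the control of neurite growth. Its promoter is widely used to express transgenes in postnatal neurons, which is how it came to drive APP in these mice.

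The gene (ENSMUSG00000032011) spans chr9:44043384-44048579 on the plus strand of GRCm38, the build also called mm10. In the GENCODE M21 annotation its first listed coding transcript has 4 exons and 1735 bases, of which 486 are coding bases. Exon 1 is noncoding, exon 2 holds the first 37 coding bases, exon 3 holds 339 and exon 4 holds the last 110 before a long 3′ untranslated region. No other annotated gene overlaps it. The coding stretches of exons 2 and 4 are shown because they are where translation of the endogenous gene starts and where its GPI signal peptide ends. The start codon and the last codon before the stop are in capitals, and both are read from the GENCODE M21 transcript.
Thy1 exon 2, coding, chr9:44045982-44046018, plus strand: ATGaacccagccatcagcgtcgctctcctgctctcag
Thy1 exon 4, coding, chr9:44047339-44047448, plus strand: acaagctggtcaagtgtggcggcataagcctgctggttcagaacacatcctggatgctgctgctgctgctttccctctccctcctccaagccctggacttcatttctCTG
The count table has a single value per gene and mouse. Which parts of Thy1 the transgene carries along with its promoter is not given in the sources used here, and reads from the endogenous gene and from any Thy1 exon within the transgene cannot be told apart in these values.

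Thy1 was higher in every APPtg/CETPtg mouse than in any CETPtg mouse, and it was scattered widely among APPtg/CETPtg mice. Levels are given as CPM, the count of Thy1 per 1000000 counts of its library after normalization by the trimmed mean of M values (TMM). In the CETPtg vehicle group, Thy1 stood at 701 CPM in S1, 706 in S2, 707 in S3 and 730 in S4. In the CETPtg evacetrapib group, it stood at 807 CPM in A, 783 in B, 753 in C and 684 in D. The 8 CETPtg mice thus lay close together, the highest at 1.18 times the lowest, and their treatment groups overlapped.

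In the APPtg/CETPtg vehicle group, Thy1 stood at 2064 CPM in S5, 1420 in S6, 886 in S7 and 974 in S8. In the APPtg/CETPtg evacetrapib group, it stood at 1000 CPM in E, 1818 in F, 865 in G and 1040 in H. Mice S5, F and S6 were the 3 highest of all 16 and were themselves far apart. The gap below S6 was 380 CPM, that between S6 and F 398 CPM and that between F and S5 246 CPM. The highest APPtg/CETPtg mouse was at 2.39 times the lowest, and the treatment groups overlapped here too.

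**Figure D1:**
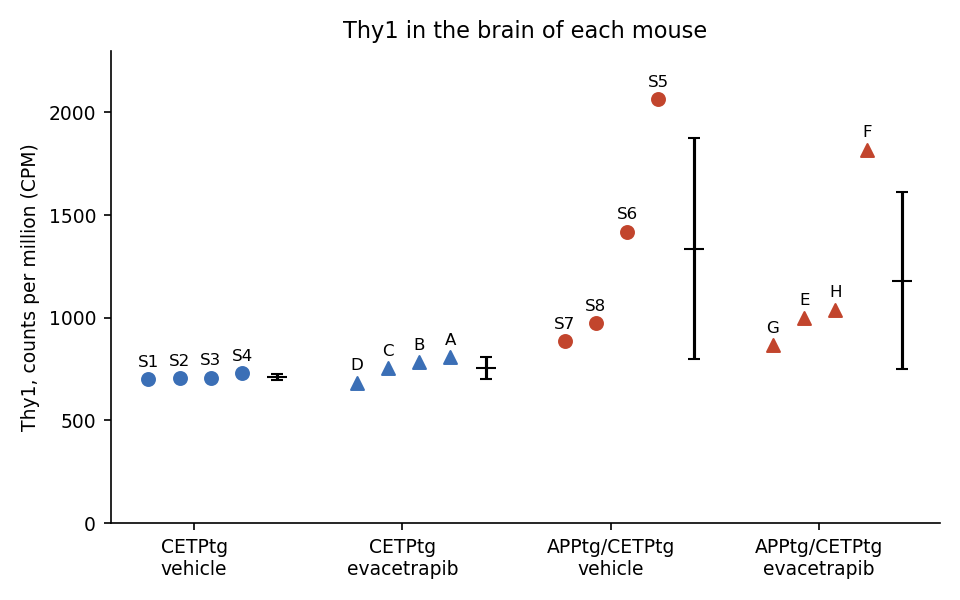
Thy1 in CPM (vertical axis, from 0) in each of the 16 mice, by group on the horizontal axis. Points are single mice with their labels, circles for vehicle and triangles for evacetrapib, and the black bars give each group's mean and SD. The 8 CETPtg mice sit between 684 and 807 CPM, and the 8 APPtg/CETPtg mice between 865 and 2064.

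As group means, Thy1 was at 711 ± 12.8 CPM (SD, n = 4) in CETPtg vehicle, 757 ± 53.4 in CETPtg evacetrapib, 1181 ± 431 in APPtg/CETPtg evacetrapib and 1336 ± 539 in APPtg/CETPtg vehicle mice, in that order from the lowest. The means of the CETPtg groups differed by less than the SD of the evacetrapib group but by more than that of the vehicle group. Those of the APPtg/CETPtg groups differed by less than either SD. The step from CETPtg evacetrapib to APPtg/CETPtg evacetrapib mice was also smaller than the SD of the higher group. Between genotypes the ranges nevertheless did not overlap, and the lowest APPtg/CETPtg mouse, G at 865 CPM, was 58 CPM above the highest CETPtg mouse, A at 807. Among all genes tested, 1.74% separated the 8 APPtg/CETPtg from the 8 CETPtg mice in this way on the higher side, a share from which nothing is read for Thy1, since this contrast chose it.

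Over both treatments, the mean level of Thy1 in APPtg/CETPtg mice was 1.71 times that in CETPtg mice, and the median 1.42 times. In vehicle-treated mice the ratio of means was 1.88 and in evacetrapib-treated mice 1.56. In the model with a treatment term, the log2 fold change of Thy1 between the genotypes was 0.78 ± 0.15 (SE). Without mouse S5 it was 0.63, and without mouse F 0.65. In this contrast 17.7% of all genes tested passed, which required an adjusted p of 0.05 or less and a change of 5% or more, 9.35% as higher and 8.38% as lower.

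Set against the mean of the CETPtg mice with the same treatment, the excess differed from mouse to mouse. It was 1352 CPM in S5, 1061 in F and 709 in S6, and between 108 and 283 CPM in the other 5 APPtg/CETPtg mice. As folds, S5 was at 2.90 times the CETPtg mean, and F at 2.40, while G, the lowest, was at 1.14. The high mice were found in both treatments, 2 with vehicle and 1 with evacetrapib.

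Counting error was small against this scatter. Thy1 was covered by 18772 to 54202 reads per mouse, so that the SD expected from counting alone was at most 0.0105 on the log2 scale. Within treatment groups, the SD of Thy1's log2 CPM was 0.516 in APPtg/CETPtg and 0.0757 in CETPtg mice, a ratio of 6.81. Of the 2309 genes with a mean of at least 100 CPM, 3 had a larger SD than Thy1 in APPtg/CETPtg mice and 1021 in CETPtg mice, where the median gene was at 0.0715. The ratio was larger for 0 of these genes, and its median was 1.09.

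The 3 genes with a larger SD in APPtg/CETPtg mice are named here after their values were seen, and each was also scattered in CETPtg mice. They were CT010467.1, at 0.704 and 0.731 in the 2 genotypes, Arc, an immediate early gene of active neurons, at 0.606 and 0.435, and Lars2, the mitochondrial leucyl-tRNA synthetase, at 0.558 and 0.596. The gene with the next highest ratio after Thy1 was Ehd3, which codes for a protein of endosomal transport, with a ratio of 6.31 from SDs of 0.214 and 0.0340. The spread of Thy1 was among those used to choose it, so these values describe it and support nothing further.

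**Figure D2:**
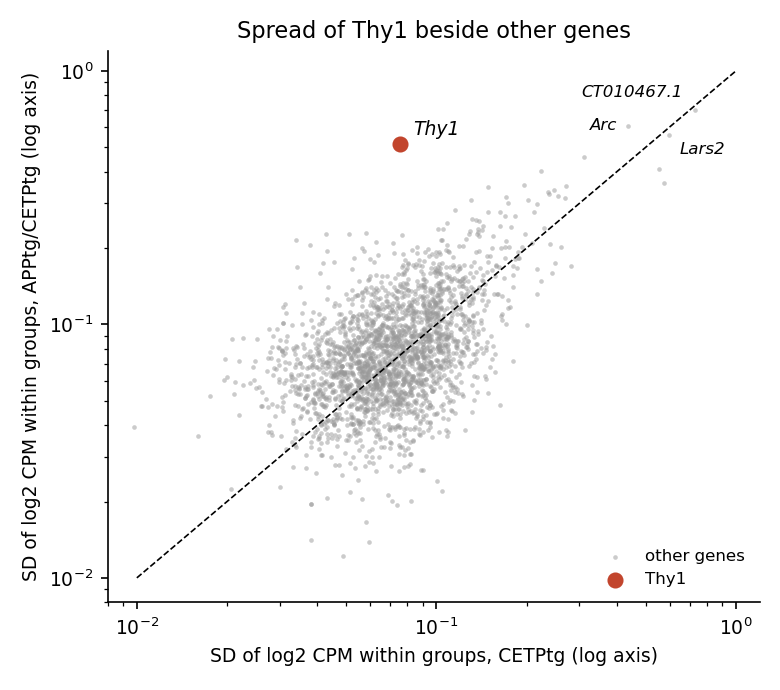
SD of log2 CPM within treatment groups in CETPtg (horizontal) and APPtg/CETPtg mice (vertical), both on log axes, for the 2309 genes with a mean of at least 100 CPM, 1 point per gene. The dashed line marks equal SDs. Thy1, in red, stands at 0.0757 and 0.516, while CT010467.1, Arc and Lars2 are scattered in both genotypes.

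To compare Thy1 with other genes, the level was divided by exon length, 2995 bases for all annotated Thy1 exons together. On this scale of CPM per kilobase, Thy1 was at 237 in CETPtg vehicle and 253 in CETPtg evacetrapib mice, ranks 95 and 89 of 18583 genes. It was at 446 in APPtg/CETPtg vehicle and 394 in APPtg/CETPtg evacetrapib mice, ranks 40 and 45. Prnp, the prion protein gene and likewise GPI-anchored, was at 292 CPM per kilobase in CETPtg vehicle and 335 in APPtg/CETPtg vehicle mice, and so above Thy1 in the former group and below it in the latter. The contactin gene Cntn1 was far lower, at 43.0 and 38.1 CPM per kilobase in the same groups.

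Evacetrapib had no detectable effect on Thy1. Over all mice, with a genotype term, the log2 fold change of evacetrapib over vehicle was -0.04 ± 0.15 (SE), with a 95% interval of -0.36 to 0.27 and an adjusted p of 0.975 (quasi-likelihood test of edgeR, adjusted by Benjamini-Hochberg). Thy1 was not among the 0.0107% of genes tested that passed in this contrast. The interval reaches from 0.778- to 1.21-fold, and changes within it are compatible with these values. The smallest change that these mice could show was not computed.

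Within genotypes the estimates had opposite signs, and neither passed the test. In CETPtg mice the log2 fold change was 0.09 ± 0.22 (SE; adjusted p = 0.963, edgeR), and in APPtg/CETPtg mice it was -0.18 ± 0.22 (adjusted p = 0.850), in a contrast that 0.043% of genes passed. The difference between these effects was -0.27 ± 0.30, with a 95% interval of -0.91 to 0.37 and an adjusted p of 0.870. The SE in CETPtg mice is wide because the model shares its estimate of the spread with APPtg/CETPtg mice. In a fit to the 8 CETPtg mice alone the estimate was again 0.09, with an SE of 0.0539 and an adjusted p of 0.717.

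Exact permutation of the treatment labels, two-sided, gave p = 0.171 in CETPtg mice, p = 0.714 in APPtg/CETPtg mice and p = 0.880 over both genotypes, where the labels can be exchanged in 70, 70 and 4900 ways and the smallest possible p is 0.0286, 0.0286 and 0.000408. Single mice set the sign. Without S5 the estimate in APPtg/CETPtg mice was 0.11 and the difference between genotypes 0.02. Without F they were -0.46 (adjusted p = 0.407, edgeR) and -0.55 (adjusted p = 0.541).

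**Figure D3:**
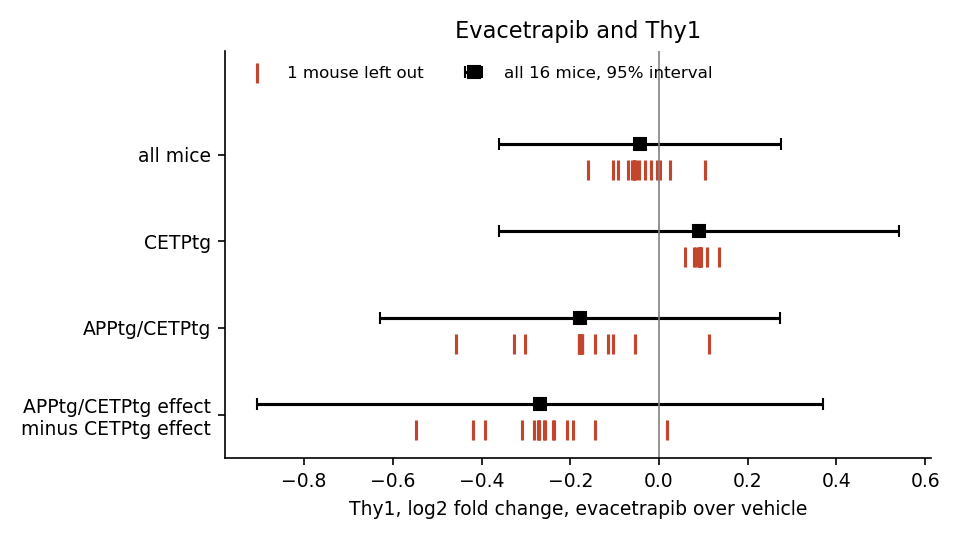
Log2 fold change of Thy1, evacetrapib over vehicle, over all mice, within each genotype, and as the difference between the genotypes' effects. Black squares and bars are edgeR estimates with 95% intervals from all 16 mice, and red ticks are the estimates with 1 mouse left out. All 4 intervals include 0, and the ticks for APPtg/CETPtg mice run from -0.46 to 0.11.

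Position on the index plate went along with both factors. The labels place all CETPtg libraries in columns 11 and 12 and all APPtg/CETPtg libraries in columns 8 and 9, so that column and genotype cannot be told apart. In both genotypes, all evacetrapib libraries were in rows G, H, A or B and all vehicle libraries in rows C to F. Plate row and treatment therefore cannot be told apart either. A and B, the highest CETPtg mice for Thy1, were the 2 libraries of column 11. Within column 12, the 2 evacetrapib mice averaged 719 CPM and the 4 vehicle mice 711 CPM, a log2 difference of 0.01 (p = 0.867, exact permutation over 15 labelings). Within column 9, the 2 evacetrapib mice averaged 952 CPM and the 4 vehicle mice 1336 CPM, a log2 difference of -0.41 (p = 0.467, exact permutation). These comparisons within columns were added after the data were seen, and they do not separate treatment from plate row. With 2 mice against 4, such a test cannot reach the threshold of 0.05.

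Depth also differed. The counts on genes summed to between 28626139 and 46800787 per mouse in CETPtg mice and between 21391335 and 55453789 in APPtg/CETPtg mice, with medians of 36043314.5 and 23689163. S8, the deepest library, was among the low APPtg/CETPtg mice for Thy1, at 974 CPM. With all libraries thinned to the smallest total, the log2 fold change of Thy1 between the genotypes was 0.78 as well.

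The transgene's cargo was looked at through App, the mouse gene for the amyloid precursor protein. App had 2193 ± 95.6 CPM (SD, n = 4) in CETPtg vehicle, 2162 ± 162 in CETPtg evacetrapib, 2394 ± 225 in APPtg/CETPtg vehicle and 2121 ± 188 in APPtg/CETPtg evacetrapib mice. Its log2 fold change between the genotypes was 0.05 ± 0.05 (adjusted p = 0.574, edgeR), and that with evacetrapib was -0.10 ± 0.05 (adjusted p = 0.682). How many reads of the human transgene align to the mouse App gene was not tested.

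Mice S5 and F, the highest for Thy1, were also the highest APPtg/CETPtg mice for App, at 2720 and 2389 CPM, ahead of S6 at 2366, S7 at 2261, S8 at 2231, G at 2115 and E and H at 1989 each. Over these 8 mice, Pearson's r between Thy1 and App was 0.801 (p = 0.0135, exact permutation), which is 0.113 after adjustment over 18 relations, and Spearman's rho was 0.619 (p = 0.115, exact permutation). Without the 2 mice farthest from the median of App, r was 0.645. In the 8 CETPtg mice r was 0.604 (p = 0.115, exact permutation; adjusted p = 0.271) and rho 0.619. On deviations from the mean of each treatment group, r was 0.898 in APPtg/CETPtg mice and 0.831 in CETPtg mice. Permutation of these deviations over all 8 mice, across treatments, gave p = 0.00977 and p = 0.00704. These p are approximate, since deviations within a group sum to 0, and are not adjusted over the 18 relations. The relation to App was added after the data were seen.

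Next, the genes beside Thy1 on chromosome 9 were examined. None of the 10 nearest tested genes, 5 on each side, passed in the genotype contrast or with evacetrapib, contrasts that 17.7% and 0.0107% of all genes tested passed. With 10 genes, of which 7 were barely expressed, little can be read from this count. Usp2, a ubiquitin-specific protease gene that starts 18442 bases beyond the end of Thy1, was at 89.6 ± 9.20 CPM in CETPtg and 86.1 ± 9.81 in APPtg/CETPtg mice (SD, n = 8), a log2 fold change of -0.06 ± 0.06 (adjusted p = 0.527, edgeR). Nectin1, an adhesion molecule gene and the nearest tested gene on the other side, 235923 bases away, was at 43.9 ± 4.45 and 40.8 ± 6.49 CPM, a log2 fold change of -0.11 ± 0.07 (adjusted p = 0.318). Rnf26, which codes for a ubiquitin ligase, was at 6.77 and 6.42 CPM with a log2 fold change of -0.08 ± 0.06 (adjusted p = 0.450). The other 7, Gm30015, Gm36855, Trim29, D630033O11Rik, Mfrp, Gm26737 and Gm10687, averaged at most 1.29 CPM in either genotype, so that their estimates were imprecise. Mfrp had the highest of these, 0.62 ± 0.66 (adjusted p = 0.569).

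**Figure D4:**
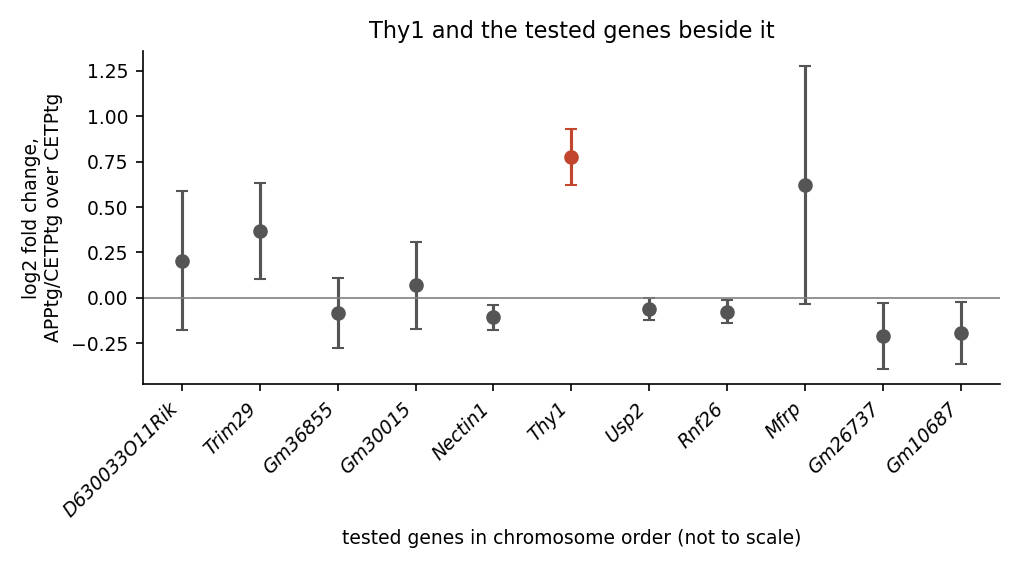
Log2 fold change, APPtg/CETPtg over CETPtg, of Thy1 (red) and of the 5 nearest tested genes on each side of it (grey) in chromosome order, not to scale. Bars are standard errors from edgeR. Thy1 is at 0.78, and Nectin1, Usp2 and Rnf26, the better expressed neighbours, lie between -0.11 and -0.06.

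Genes that mark neurons as a class passed between the genotypes at about the share of all genes in either direction, but only on the higher side. Of the 16 pan-neuronal genes, 3 were higher in APPtg/CETPtg mice and 0 lower, or 18.8%. Of all genes, 17.7% passed in either direction, 9.35% as higher and 8.38% as lower. The median of the list was -0.03 on the log2 scale against 0.00 for all genes. The 3 were Uchl1, a neuronal ubiquitin hydrolase, with 0.30 ± 0.06 (adjusted p = 0.00147, edgeR), Stmn2, a regulator of axonal microtubules, with 0.14 ± 0.05 (adjusted p = 0.0498), and Syp, the synaptic vesicle protein synaptophysin, with 0.09 ± 0.03 (adjusted p = 0.0351). Relative to the mean log2 CPM of the list, Thy1 lay 0.05 to 0.19 higher in the 8 CETPtg mice and 0.38 to 1.62 higher in the 8 APPtg/CETPtg mice. The difference between genotypes on this scale was 0.70.

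Thy1 followed the pan-neuronal list from mouse to mouse in CETPtg mice. There Pearson's r was 0.905 (p = 0.00164, exact permutation, two-sided; adjusted p = 0.0278 over 17 relations) and Spearman's rho 0.833 (p = 0.0154, exact permutation), and r without the 2 mice farthest from the median of the list was 0.753. The CETPtg evacetrapib mice fell in the order A, B, C and D on both values, and A and B were the libraries of column 11. The CETPtg vehicle mice showed no such order. Among them, S1 had the highest pan-neuronal mean, 9.40 log2 CPM, and the lowest Thy1, 9.45 log2 CPM. In APPtg/CETPtg mice r was 0.411 (p = 0.327, exact permutation; adjusted p = 0.514) and rho 0.429. The difference between these coefficients was not tested. Of the 3 APPtg/CETPtg mice highest for Thy1, S6 and F also had the highest pan-neuronal means of that genotype, at 9.54 and 9.43 log2 CPM. S5, the highest for Thy1, had a pan-neuronal mean of 9.39 log2 CPM, next to 9.40 in S8 and 9.41 in S7.

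**Figure D5:**
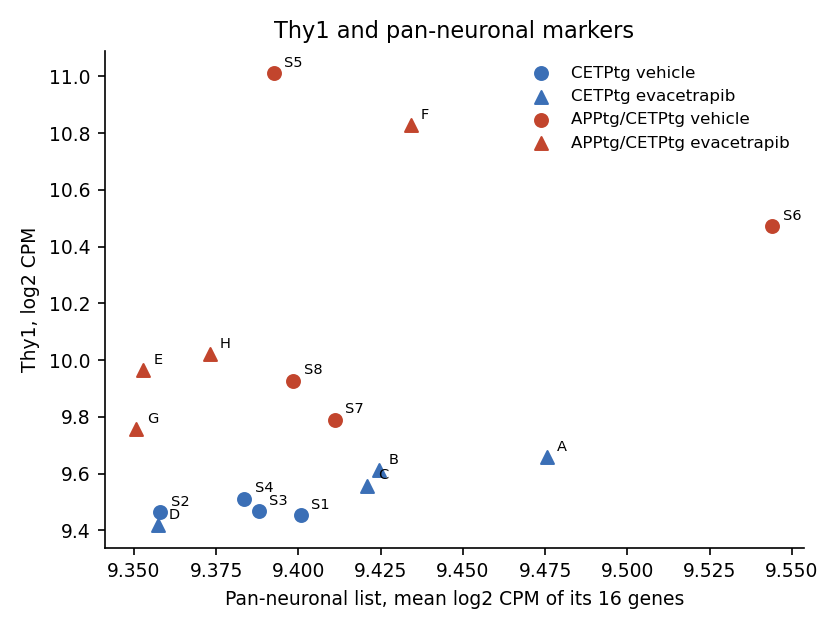
Log2 CPM of Thy1 (vertical) against the mean log2 CPM of the 16 pan-neuronal genes (horizontal) in each mouse, blue for CETPtg and red for APPtg/CETPtg, circles for vehicle and triangles for evacetrapib. The blue triangles rise together and the blue circles do not (r of 0.905 over all 8 blue points). S5, F and S6 stand high at pan-neuronal means of 9.39, 9.43 and 9.54.

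The other 15 marker lists and the library total gave no Pearson's r with Thy1 that passed the adjustment in either genotype. Spearman's rho was not adjusted. In CETPtg mice the nearest was the list of forebrain excitatory neurons, with r = 0.843 (p = 0.00655, exact permutation; adjusted p = 0.0557). The oligodendrocyte list there had r = 0.761 (p = 0.0289, exact permutation; adjusted p = 0.164). Its rho of 0.929 (p = 0.00223, exact permutation) was above that of the pan-neuronal list, so Thy1 did not follow neuronal markers alone. In APPtg/CETPtg mice the oligodendrocyte list had r = -0.544 and rho = -0.595. In APPtg/CETPtg mice the lowest coefficients were those of cerebellar neurons, r = -0.835 (p = 0.0136, exact permutation; adjusted p = 0.160), and thalamic neurons, r = -0.822 (p = 0.0189, exact permutation; adjusted p = 0.160). Without the 2 mice farthest from the median of the list, the former fell to -0.308 and the latter was -0.885. The library total had r = -0.293 in APPtg/CETPtg and 0.452 in CETPtg mice (p = 0.538 and p = 0.270, exact permutation). The brain was frozen in pieces, and which piece was used for each mouse is not given in the sources used here.

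Markers of T cells and fibroblasts, which also carry Thy-1, were measured too. Cd3d, Cd3e and Cd3g, which code for the T cell receptor's CD3 chains, had at most 4 counts in any mouse, and 3 of the 8 T cell markers had enough counts to be tested. These were Cd4, Lck and Trac, and their list summed to 20.6 to 27.8 CPM in CETPtg and 16.7 to 25.9 CPM in APPtg/CETPtg mice. Cd4 had 334 to 1045 counts per mouse, far above the CD3 genes, and the cells it came from were not tested. The list of fibroblast and meningeal genes summed to 87.1 to 102 CPM and 76.1 to 102 CPM. Cd4, at a mean of 20.4 CPM, made up most of the first sum, and Pdgfra, at 50.35 CPM, was the largest part of the second. Their log2 fold changes between the genotypes were -0.36 ± 0.08 for Cd4 (adjusted p = 0.00486, edgeR) and -0.19 ± 0.06 for Pdgfra (adjusted p = 0.0285). No other member passed, so the shares were 33.3% and 16.7% of those tested, against 17.7% of all genes. Both sums overlapped between the genotypes, and the part of these cells in the level of Thy1 was not tested. In bulk tissue, fewer cells of a type and less RNA per cell cannot be told apart.

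Receptors and other binding partners of Thy-1 form a list of 10 genes, all tested, of which 20% passed between the genotypes, against 17.7% of all genes. Itgav, the integrin alpha V subunit, was lower in APPtg/CETPtg mice, with a log2 fold change of -0.23 ± 0.06 (adjusted p = 0.00736, edgeR). Itgb2, the beta 2 integrin of leukocytes and microglia, was higher, with 0.26 ± 0.09 (adjusted p = 0.0459). Itgb3, the partner of Itgav in the integrin that binds Thy-1 on astrocytes, had 0.08 ± 0.10 (adjusted p = 0.635), and Sdc4, syndecan-4, had -0.11 ± 0.05 (adjusted p = 0.146).

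Of the 15 genes for signalling downstream of Thy-1, 2 were lower and 0 higher in APPtg/CETPtg mice, which is 13.3% against 17.7% of all genes tested. They were Arhgap35, a GTPase-activating protein for RhoA, with -0.15 ± 0.03 (adjusted p = 0.00531, edgeR), and Rock1, a kinase that acts below RhoA, with -0.23 ± 0.06 (adjusted p = 0.00674). The Src family kinase gene Fyn had 0.05 ± 0.05 (adjusted p = 0.516). With evacetrapib, 14 of the 15 had an estimate above 0 (median 0.05 on the log2 scale), as had 9147 of all 18609 genes (median -0.0015). None of the 15 passed the test, in a contrast that 0.0107% of all genes passed.

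Of 37 genes for other GPI-anchored proteins of the neuronal surface, 36 were tested, and 4 were higher and 5 lower in APPtg/CETPtg mice. This is 25.0% in all, against 17.7% of all genes tested. Higher were Prnp, with a log2 fold change of 0.17 ± 0.04 (adjusted p = 0.00451, edgeR), the Nogo receptor relative Rtn4rl2, with 0.29 ± 0.09 (adjusted p = 0.0357), the persephin receptor Gfra4, with 0.20 ± 0.05 (adjusted p = 0.00602), and Ly6h, with 0.19 ± 0.06 (adjusted p = 0.0239). The 5 that were lower were the adhesion molecules Cntn1 (-0.18), Lsamp (-0.19) and Opcml (-0.18), the ephrin Efna5 (-0.32) and the glypican Gpc4 (-0.22). Efna5 had the largest estimate in size among the 36, beside 0.78 for Thy1.

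The neurofilament genes, which mark the large projection axons on which Thy-1 is abundant, were also measured. Of 5, 1 passed, or 20% against 17.7% of all genes tested. Nefm was lower in APPtg/CETPtg mice, with -0.15 ± 0.05 (adjusted p = 0.0499, edgeR), and Nefl had -0.10 ± 0.05 (adjusted p = 0.160). With evacetrapib, none of the 66 tested genes of these 4 lists passed, as against 0.0107% of all genes tested. The 4 with the smallest p were the ephrin Efna3 at -0.11 ± 0.04 (adjusted p = 0.548, edgeR), Itgb1, an integrin beta subunit, at 0.10 ± 0.04 (adjusted p = 0.565), Itgb3 at 0.23 ± 0.10 (adjusted p = 0.589) and Ly6e at 0.14 ± 0.06 (adjusted p = 0.597).

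Among the marker lists, those of oligodendrocytes and microglia had the highest shares of members that passed between the genotypes. Of all genes tested, 9.35% were higher and 8.38% lower. In the oligodendrocyte list, 6 of 10 genes were lower in APPtg/CETPtg mice and 0 higher, among them Mbp, the gene of myelin basic protein, with a log2 fold change of -0.20 ± 0.07. In the microglial list, 3 of 7 were higher, among them Tmem119, with 0.30 ± 0.05. The list of genes induced in glia around plaques had 9 tested genes, of which 0 passed.

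The 5 genes whose levels followed Thy1 most closely were listed for each genotype. They were ranked by Pearson's r over its 8 mice, as a description with no test. The ranking covered 10262 genes with a mean of at least 10 CPM. Their median r with Thy1 stood at 0.0273 over CETPtg mice, against 0.0451 over APPtg/CETPtg mice. The 2 lists shared no member, but lists this short from so many genes would rarely overlap by chance. Genes picked for the highest r over 8 mice also tend to have a lower r in other mice. No difference between the genotypes is therefore read from these lists. In CETPtg mice the first 5 were Atp6v1e1, a subunit of the proton pump of synaptic vesicles and lysosomes (r = 0.982), Rph3a, the synaptic vesicle protein rabphilin (0.980), Ly6e (0.968), Syp (0.958) and Syn1, the vesicle protein synapsin (0.955). Over APPtg/CETPtg mice, the same genes had r of 0.471, 0.176, -0.122, 0.595 and 0.247.

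In APPtg/CETPtg mice the first 5 were Focad (r = 0.946), Ndufb7, a subunit of mitochondrial complex I (0.943), Heatr3 (0.932), Nsdhl, an enzyme of cholesterol synthesis (0.927), and Nagk, a kinase of N-acetylglucosamine (0.913). Over CETPtg mice their r ranged from -0.369 to 0.278. They varied far less than Thy1 did. Across the 8 APPtg/CETPtg mice, log2 CPM spanned 0.143 in Focad, 0.0931 in Ndufb7 and at most 0.282 in the other 3, against 1.25 in Thy1. All genes of a mouse come from the same library and depth.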

How the data were processed

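The authors enriched poly(A) RNA from bulk brain, prepared directional libraries, trimmed read pairs with Trimmomatic 0.39, aligned them to mm10 with STAR 2.7.8a and assigned them to genes with HTSeq-count. What they deposited are the raw counts, 1 whole number per gene and mouse, with no normalization. The settings for strand and for reads that align to several places, and the annotation used, are not given in the sources used here, and both bear on the reads a transgene can add to Thy1.

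A gene was kept where 4 or more mice had 10 or more counts, and differences were tested by quasi-likelihood in edgeR 4.0.16 (R 4.3.3), with TMM normalization and Benjamini-Hochberg adjustment over all 18609 genes tested. CPM used TMM library sizes, and log2 CPM a prior count of 2. Models held genotype and treatment, or a mean for each group. Intervals are at 95%. Relations were tested by exact permutation over the 8 mice of a genotype. Alternatives included DESeq2 1.42.0 and limma-voom (limma 3.58.1).

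Thy1 and the gene lists were chosen with earlier results of these data known. Genes are named by rule, as Thy1, App, its 5 nearest tested genes per side, list members that passed or the 2 with the smallest p, and the 5 with the highest r per genotype. Others were named after their values were seen, as were some members that did not pass and the glial examples. The labels give no cage, litter or extraction day.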

Additional observations from a re-analysis of the deposited data

How the results depend on the processing

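The contrast between the genotypes chose Thy1, so its reruns describe the size of the difference and support nothing further. The genotypes did not overlap, so leaving out a mouse could not turn the sign. In every alternative run, Thy1 was higher in APPtg/CETPtg than in CETPtg mice, with log2 fold changes from 0.63 without mouse S5 to 0.83 without mouse G. These alternatives were DESeq2's size factors, library totals without TMM, DESeq2's Wald test, limma-voom, no filter, thinned counts, a replicate block, the pan-neuronal reference and each mouse left out. The treatment effect on Thy1 did not pass in any of them, and its adjusted p ranged from 0.407 to 1.00. Before adjustment over all genes, p without mouse F was 0.0262 in APPtg/CETPtg mice and 0.0457 for the difference between the genotypes' effects (edgeR). With all mice these were 0.421 and 0.391. The sign of the treatment effect over all mice, -0.04, turned to 0.10 without S5, 0.02 without G and 0.002 without E. Estimates ran from -0.16 to 0.10 over the mice left out. In APPtg/CETPtg mice the range was -0.46 to 0.11 and in CETPtg mice 0.06 to 0.14. The difference between the genotypes' effects ranged from -0.55 to 0.017.

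The number of genes called between genotypes, 3299, ranged from 2503 to 3590 over the mice left out and was 3719 with DESeq2. Library totals without TMM gave 2099 of 3328 as higher, against 1740 of 3299. With evacetrapib over all mice, 2 genes passed, but 59 with DESeq2's Wald test and 35 without a filter, and between 0 and 8 with a mouse left out, namely 0 without B, D, E, F, H, S1, S3, S5 or S7, 1 without G, 4 without S4 and 8 without S8. Where 0 passed in edgeR, between 1158 of 18592 genes tested (without S5) and 1561 of 18559 (without B) had an unadjusted p below 0.05. With all mice this was 7.91% of genes tested, and a share of 0.05 falls below that threshold where nothing changes. On deviations from treatment means the permutation p is only approximate. By it, 33 of the 35 relations other than that of Thy1 to mural cell markers in CETPtg mice kept their sign and their side of 0.05. The relation to mural cell markers there turned from 0.415 to -0.125. The cause was not tested.

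The first header line of the table numbers the mice 1 to 4 in each group. Over all genes tested, deviations of same-numbered mice correlated between -0.203 and 0.173, with a median of -0.00601. No pairing across the genes as a whole was seen, and a pairing that affects few genes was not tested. With the numbers as a replicate block, which was added after the data were seen, the treatment effect was -0.04 and the genotype difference 0.73. Thy1 is deeply covered, so depth does not limit its values, but the 4 mice per group and the spread in APPtg/CETPtg mice do.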
